A study of Mus musculus with 13 samples.

Results

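Amino acid and neurotransmitter transporters were followed in the cerebral meninges of newborn mice. They were taken as every gene whose symbol belongs to the solute carrier families Slc1a, Slc6a, Slc7a, Slc17a, Slc18a, Slc32a or Slc38a, a choice by name that used no measured value. Of the 19938 genes tested, 66 were such transporters, each measured by 1 probe set, the brightest of those that carry only its symbol. The tested mice were 4 Pdgfc-/-; Pdgfra GFP/+ pups, which lack the ligand PDGF-C and carry GFP in place of 1 copy of the gene of its receptor. The other 9 pups of the same C57BL6 litter formed 1 control group, which pools Pdgfc+/+, Pdgfc+/- and Pdgfc-/- animals, some of them with the Pdgfra GFP/+ allele as well. The genotype of each control is not given in the sources used here, so the controls are not all wild type. All pups were newborn (postnatal day 0), and the RNA of each pup was hybridised to its own Affymetrix Mouse Gene 1.0 ST array.

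Transporters of these families carry amino acids, transmitters or related compounds across membranes. In neurons, vesicular transporters load glutamate, GABA, glycine, monoamines and acetylcholine into synaptic vesicles. Transporters of the plasma membrane of neurons and glia take glutamate, GABA, glycine and monoamines up again. The other families supply cells with amino acids: blood vessels of the brain carry them in from the blood, and fibroblasts and arachnoid cells of the meninges carry several of them between brain and cerebrospinal fluid.

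A gene was said to have risen or fallen in mutants where its adjusted p was under 0.05 (limma on log2(intensity + 16), Benjamini-Hochberg over all 19938 genes). By this rule 9 of the 66 transporters rose and 14 fell, which is 13.6% and 21.2% of them. Over all tested genes 8.58% rose and 6.31% fell. The median log2 fold change, mutant over control, was -0.04 for the transporters and 0.00 for all tested genes. With each array centred on reference genes or on fibroblast genes it was 0.10 and 0.13 for the transporters and 0.1372 and 0.171 for all genes. More than 2-fold higher were 4 transporters, with 3.28% of all genes in that class, and more than 2-fold lower were 7, with 0.792% of all genes. Of these 7 falls 2 (Slc38a5 and Slc6a9) were over 2-fold with arrays centred on reference or fibroblast genes, and all 7 were still called. For 5 transporters all 4 mutants lay above all 9 controls (6.4% of all genes) and for 10 all mutants lay below all controls (3.04%). The calls were uneven over brightness: of the 32 transporters among the brighter 9969 tested genes 6 rose and 13 fell, and of the 34 among the dimmer 9969 genes 3 rose and 1 fell, where all genes of the brighter set gave 1058 rises and 1065 falls and those of the dimmer set 652 and 193.

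**Figure D1:**
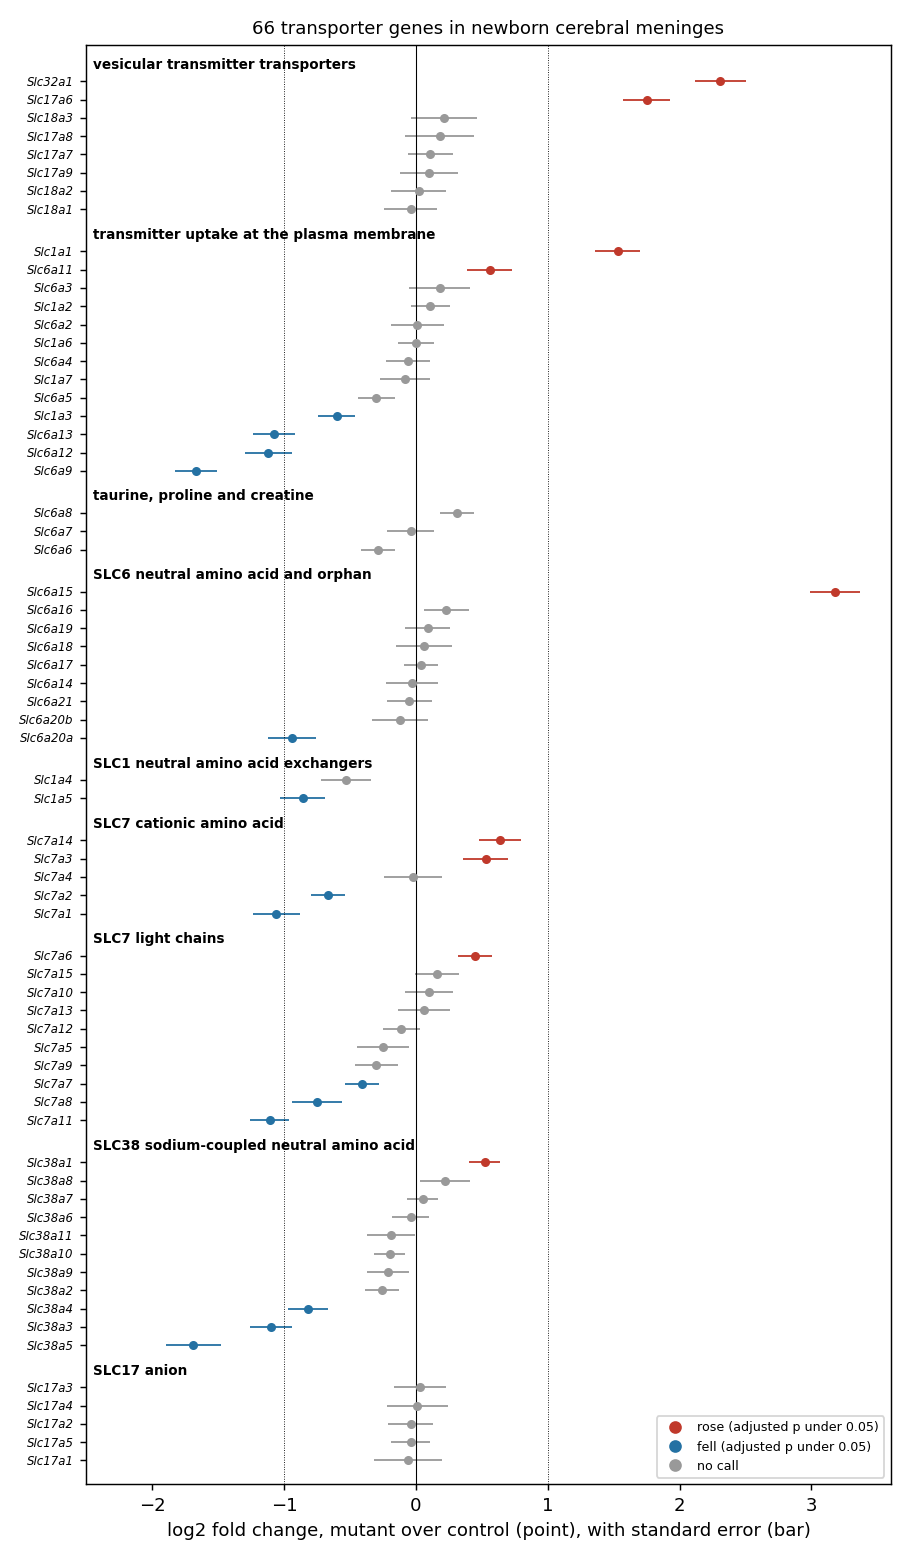
Log2 fold change of each of the 66 transporter genes, mutant over control, with its standard error as a bar, ordered by the role of the protein. Dotted lines mark a 2-fold difference, and Slc6a15 at 3.18 and Slc38a5 at -1.69 are the ends of the range.

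Values of the whole series stand beside these counts. In all, 1710 genes rose and 1258 fell, and 3192 rose and 1103 fell with arrays centred on reference genes, 3762 and 1051 with fibroblast genes as the centre, 1808 and 2862 with array medians, and 2668 and 3617 after quantile normalization. Pdgfc had intensities of 22.8, 27.9, 22.8 and 29.3 in the mutants, against 5.88 in control 2 and 103 to 275 in the other 8 controls. All 12 pan-neuronal marker genes rose (median log2 fold change 2.80), and the sum of their intensities was 10593 to 13433 in mutants and 1521 to 3602 in controls. Inhibitory neuron markers rose in 6 of 8 cases, with sums of 4498 to 6048 in mutants and 311 to 898 in controls. Excitatory neuron markers rose in 5 of 7, with sums of 2600 to 3650 in mutants and 432 to 1314 in controls. Cajal-Retzius markers rose in 4 of 6, with sums of 2159 to 2608 in mutants and 279 to 562 in controls. Most of that sum in mutants was Reln (1697 to 2016, and 73.4 to 193 in controls). Fibroblast markers defined the tissue in both groups (sums of 22997 to 32402 in mutants and 22699 to 32166 in controls, 2 of 12 risen and 1 fallen). Markers of the arachnoid (4 of 6 fallen), endothelium (4 of 8), blood-brain barrier (4 of 8), macrophages and microglia (7 of 8) and astrocytes (4 of 10) included falls and no rise. With other scalings of the arrays this held for the arachnoid, endothelium and macrophages, but not for astrocytes (2 risen and 4 fallen with reference genes as the centre, 4 and 3 with fibroblast genes, 1 and 4 after quantile normalization) or the blood-brain barrier (1 risen and 4 fallen with fibroblast genes). No marker of these lists was at 0 in any group. Cldn5 is on both the arachnoid and the blood-brain barrier list, so its fall is counted in each. In a bulk sample fewer cells of a type and less RNA per cell cannot be told apart. The groups also differed in Xist, which lay at 2.24 to 4.77 in all 4 mutants and at 4.78 to 8.73 in controls 1, 5 and 8, against 536 to 1020 in the other 6 controls. Eif2s3y, a gene of the Y chromosome, lay at 359 to 556 in the mutants and at 408, 449 and 515 in controls 1, 5 and 8. In the other 6 controls it lay at 1.64 to 3.76. By these levels the mutants and controls 1, 5 and 8 were read as male and the other 6 controls as female, so genotype and sex were partly confounded. With Xist as a covariate 4 of the 9 rises and 11 of the 14 falls of transporters were still called, and the same 4 and 11 among the 7 mice of low Xist. With Xist as a covariate none of the 8 endothelial markers and 1 of the 8 blood-brain barrier markers was called as fallen, at median log2 fold changes of -0.58 and -0.44, against -0.65 and -0.53 without it. The 8 calls lost in both were those of Slc1a3, Slc6a11, Slc7a3, Slc7a6, Slc7a7, Slc7a8, Slc7a14 and Slc38a1.

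Promoter sequence is shown for 4 transporters that stand for the main patterns below: a pair of vesicular transporters that rose, and a meningeal GABA transporter and the cystine transporter that fell. Each is the 250 bases before the annotated start, 5′ to 3′ on the gene's strand, from RefSeq (GRCm38.p6), where 17 of the 23 called transporters had an entry. Capitals mark matches, on either strand, to the amino acid response core (TGATGNAA), the GC box of Sp1-like factors (GGGCGG), the CCAAT box, spelled as its name, or the TATA box, whose letters were taken as TATAAA.
Slc32a1 (chr2:158610508-158610757, + strand): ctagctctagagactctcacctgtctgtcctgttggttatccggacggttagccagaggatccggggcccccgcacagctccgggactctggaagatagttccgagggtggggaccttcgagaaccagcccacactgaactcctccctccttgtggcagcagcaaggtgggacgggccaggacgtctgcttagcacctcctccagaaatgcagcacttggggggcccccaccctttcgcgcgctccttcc
Slc17a6 (chr7:51621580-51621829, + strand): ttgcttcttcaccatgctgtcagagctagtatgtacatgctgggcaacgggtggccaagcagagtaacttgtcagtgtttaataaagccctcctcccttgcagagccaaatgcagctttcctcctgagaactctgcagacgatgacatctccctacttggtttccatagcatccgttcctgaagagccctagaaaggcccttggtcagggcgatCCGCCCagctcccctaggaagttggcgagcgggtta
Slc6a13 (chr6:121300038-121300287, + strand): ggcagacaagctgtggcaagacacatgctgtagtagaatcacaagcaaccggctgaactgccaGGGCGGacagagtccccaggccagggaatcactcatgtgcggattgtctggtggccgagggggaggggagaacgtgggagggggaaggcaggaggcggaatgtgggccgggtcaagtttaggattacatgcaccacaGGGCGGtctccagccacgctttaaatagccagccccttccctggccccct
Slc7a11 (chr3:50443614-50443863, - strand): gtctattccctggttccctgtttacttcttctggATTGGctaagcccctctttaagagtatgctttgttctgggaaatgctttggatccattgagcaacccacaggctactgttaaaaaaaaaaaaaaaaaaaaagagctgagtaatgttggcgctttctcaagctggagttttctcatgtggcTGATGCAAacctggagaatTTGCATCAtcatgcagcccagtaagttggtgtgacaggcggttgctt
Slc17a6 has 2 starts and Slc6a13 has 3 in the table, and the window of 1 start is shown for each. In the Slc7a11 window the amino acid response core occurs at 66 and at 47 bases before the start, once on each strand. This core was present in 3.45% of all 32851 promoter windows, and among the called transporters in those of Slc7a11 and Slc7a7. A GC box was in 32.7% of windows, a CCAAT box in 33.8% and a TATA box in 12.4%. Of the 17 called transporters with an entry, 14 had a GC box, 4 a CCAAT box and 3 a TATA box, and at the level of genes 49.3%, 38.8% and 12.5% of tested genes with an entry had them. Neither side of the RE1 element, searched as TTCAGCACC and as GGACAGCG, was in a window of the 17 (0.301% and 0.992% of all windows). These are matches of letters in a short window and say nothing on the binding of any factor.

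Of the 8 vesicular transporters 2 rose and none fell. Slc32a1, which loads GABA and glycine into vesicles, had intensities of 620, 702, 534 and 660 in the mutants, against 65.0, 125 and 160 in controls (lowest, median and highest). All mutants lay far above all controls. The log2 fold change was 2.31 (4.94-fold, standard error 0.19, limma adjusted p = 3.06e-08). Slc17a6, the vesicular glutamate transporter VGLUT2, had 155, 136, 128 and 154 in mutants and 14.7, 30.8 and 64.4 in controls. Again no mutant overlapped a control, and the log2 fold change was 1.75 (3.37-fold, standard error 0.18, limma adjusted p = 6.24e-07).

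The other 6 vesicular transporters had no call, at log2 fold changes from -0.04 to 0.21. Slc17a7 (VGLUT1), the main vesicular glutamate transporter of the mature cortex, had 51.1, 27.7, 30.2 and 47.3 in mutants, against 18.7, 39.2 and 47.5 in controls (lowest, median and highest). Slc17a8 (VGLUT3) had 102, 42.9, 35.8 and 69.4 in mutants and 25.5, 58.3 and 85.8 in controls. For both genes the mutants lay within or around the range of the controls. Slc18a1 and Slc18a2 load monoamines, and Slc18a3 loads acetylcholine. Slc18a1 had 53.3, 21.5, 26.4 and 42.2 in mutants and 20.3, 39.7 and 51.7 in controls. Slc18a2 had 98.9, 68.6, 57.6 and 56.7 in mutants and 26.8, 80.7 and 91.8 in controls. Slc18a3 had 148, 90.3, 67.3 and 69.0 in mutants and 29.4, 78.2 and 122 in controls. Mutant 1 was the highest of the 4 mutants for each of these 5 genes. The array of mutant 1 had the highest median intensity of all 13 (89.65, with 56.01 to 85.94 in the other mutants and 44.09 to 89.01 in controls). Mutant 1 also had the highest sum of 6 choroid plexus markers (3697, with 936 to 1267 in the other mutants and 821 to 1271 in controls). Ttr gave 2840 of this sum. Folr1 (99.6, with 34.1 to 52.7 in the other mutants) and Otx2 (46.0, with 20.2 to 31.8) were also highest in mutant 1 among the mutants. Clic6 and Aqp1 were lower in mutant 1 than in the other mutants, and Kl lay between them. With arrays centred on their medians the 5 vesicular transporters had log2 fold changes from -0.14 to 0.11, and after quantile normalization from -0.08 to 0.13, with no call in either. The part of array brightness or of choroid plexus RNA in the high values of mutant 1 was not tested.

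The enzymes that make the transmitters were set beside the vesicular transporters. Of 6 measured genes of GABA and glutamate metabolism 2 rose and none fell (2 rose and 2 fell with arrays centred on their medians or after quantile normalization, and 3 rose centred on reference or fibroblast genes). Gad2, a glutamate decarboxylase that makes GABA, had 664, 799, 614 and 856 in mutants, against 29.2, 59.4 and 98.7 in controls, a log2 fold change of 3.34 (10.13-fold, limma adjusted p = 8.06e-10). Gad1, the other decarboxylase, rose by 0.94 (adjusted p = 0.0019). Of 11 genes of monoamine and acetylcholine metabolism none rose (1 after quantile normalization) and Maoa, a monoamine oxidase, fell by 0.70 (adjusted p = 0.0034). The fall of Maoa was not called with Xist as a covariate, at nearly the same size (log2 fold change -0.66, adjusted p = 0.0635). The rises of Slc32a1 and Gad2 came with those of the inhibitory neuron markers (Gad1 and Gad2 are on that list too), and the part of the neuronal markers in the transporter values was not tested.

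**Figure D2:**
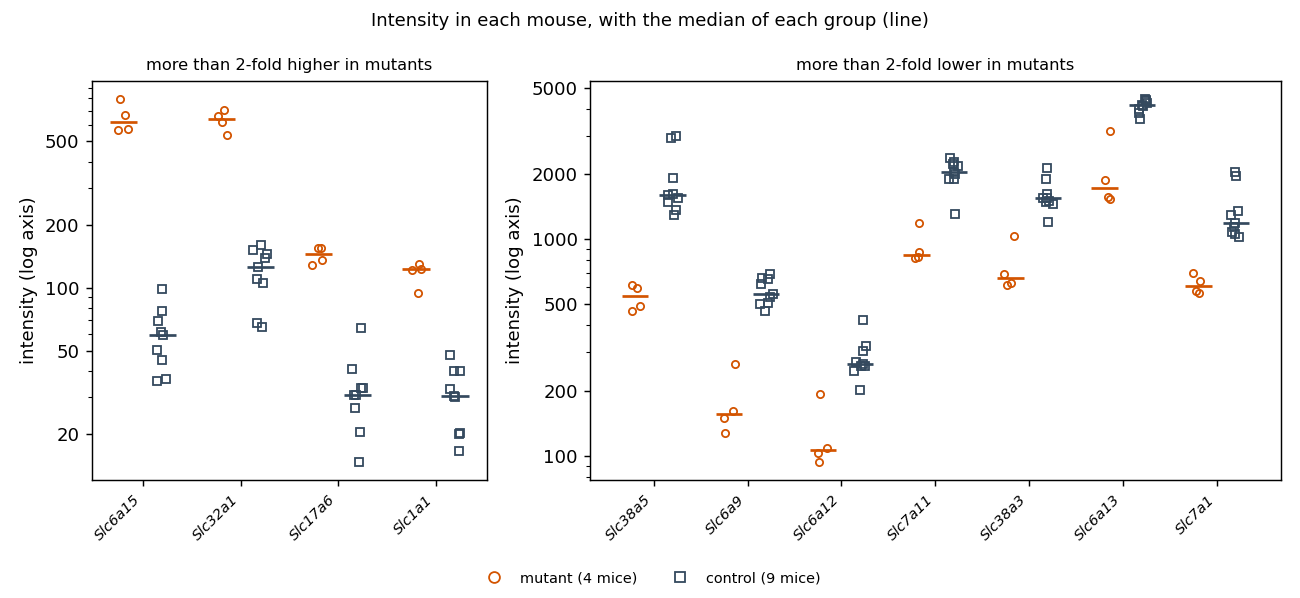
Intensity of each mouse on log axes for the 4 transporters more than 2-fold higher and the 7 more than 2-fold lower in mutants, with the median of each group as a line. In none of the 11 genes do mutants and controls overlap, but the 11 were chosen by these same values, which favours such a gap. Slc6a15 lies at 565 to 794 in mutants and at 35.8 to 98.7 in controls.

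Among the 13 transporters that clear transmitters at the plasma membrane, 2 rose and 4 fell, and the median log2 fold change was -0.06 (0.07 and 0.10 with arrays centred on reference or fibroblast genes). Slc1a1, the glutamate and cysteine transporter of neurons (EAAT3), had 121, 123, 94.1 and 129 in mutants, against 16.6, 30.2 and 47.5 in controls. The mutants all lay above the highest control. Its log2 fold change was 1.53 (2.89-fold, standard error 0.17, limma adjusted p = 1.15e-06).

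Of the glutamate transporters of astrocytes 1 fell and the other had no call. Slc1a3 (GLAST) had 801, 1111, 870 and 1302 in mutants, against 1140, 1541 and 1737 in controls, and fell by 0.60 on the log2 scale (standard error 0.14, limma adjusted p = 0.00665). Mutant 4 lay inside the control range. This call was lost with Xist as a covariate (log2 fold change -0.56, adjusted p = 0.0972) and among the mice of low Xist (-0.58, 0.0824), at nearly the same fold change. Slc1a2 (GLT-1), which takes up most glutamate in the adult forebrain, had 142, 122, 138 and 182 in mutants and 98.8, 132 and 178 in controls, with no call (log2 fold change 0.11, standard error 0.15). Slc1a6 (EAAT4), known from Purkinje cells, had 51.2, 38.0, 31.8 and 46.4 in mutants and 32.1, 38.7 and 54.8 in controls, also with no call. Of 10 astrocyte and radial glia markers 4 fell (Gjb6, Atp1b2, Slc4a4 and Gja1) and none rose. The median log2 fold change of the 10 was 0.08. With arrays centred on fibroblast genes 4 rose and 3 fell, and with reference genes 2 rose and 4 fell. The sums of the 10 were 9208 to 13749 in mutants and 11541 to 15893 in controls. Of these Gja1 gave 5240 to 7448 in mutants and 6966 to 9248 in controls. The part of the astrocyte markers in the Slc1a3 value was not tested.

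GABA transporters known from the meninges fell. Slc6a13 (GAT2), a GABA and taurine transporter of the leptomeninges, had 1534, 1884, 1573 and 3181 in mutants, against 3591, 4159 and 4447 in controls. All mutants lay below the lowest control, mutant 4 by the least. The log2 fold change was -1.08 (2.11-fold lower, standard error 0.16, limma adjusted p = 4.92e-05). Slc6a12, the betaine and GABA transporter BGT1, had 93.6, 109, 103 and 192 in mutants, against 202, 265 and 425 in controls, a log2 fold change of -1.12 (2.17-fold lower, standard error 0.18, limma adjusted p = 1.28e-04). Here too no mutant reached the lowest control. Slc6a11 (GAT3), the GABA transporter of astrocytes, went the other way, with 362, 220, 223 and 357 in mutants and 132, 192 and 243 in controls. Mutants 2 and 3 lay within the control range, and the rise of 0.56 on the log2 scale (standard error 0.17, limma adjusted p = 0.035) was not called without mutant 1 or 4 or control 3, 5, 7 or 8 (adjusted p = 0.0501 to 0.166). Markers of the arachnoid fell in 4 of 6 cases, with sums of 7093 to 11207 in mutants and 12898 to 17443 in controls. Of these sums Ptgds gave 1661 to 3502 in mutants and 5464 to 6907 in controls. Cldn5, 1 of the 4 falls, is on the blood-brain barrier list too, and Cldn11 and Aldh1a2 had no call. As for Slc6a13, mutant 4 was the highest of the 4 mutants in the arachnoid sum. The same held for the sums of fibroblast, astrocyte, endothelial, blood-brain barrier and macrophage markers, so it was not particular to the arachnoid. It did not hold for pan-neuronal, excitatory or inhibitory neuron markers. The part of the arachnoid markers in the falls was not tested.

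The transcript of a glycine transporter fell by more. Slc6a9 (GlyT1), the glycine transporter of glia and of many other cells, had 127, 161, 149 and 266 in mutants, against 464, 559 and 695 in controls. The groups were well apart, and the log2 fold change was -1.67 (3.17-fold lower, standard error 0.16, limma adjusted p = 2.34e-07). Slc6a5 (GlyT2), the transporter of glycinergic neurons, had 24.8, 21.2, 16.9 and 26.9 in mutants and 19.4, 33.2 and 41.3 in controls, with no call (log2 fold change -0.30, adjusted p = 0.2). Among 11 genes of glycine, serine and taurine metabolism 1 rose and 2 fell. Amt, a part of the glycine cleavage system, had 124, 108, 106 and 158 in mutants, against 191, 251 and 308 in controls, and fell by 0.94 (limma adjusted p = 5.88e-05). Cdo1 and Csad, which act one after the other in the making of taurine from cysteine, went apart, with Cdo1 up by 0.60 (adjusted p = 0.00492) and Csad down by 0.48 (adjusted p = 0.0376). With Xist as a covariate both calls were lost, at a log2 fold change of 0.52 for Cdo1 (adjusted p = 0.113) and of -0.63 for Csad (adjusted p = 0.0571). The call of Csad was also lost without mutant 1, 2 or 3 or control 1, 2, 4, 5, 8 or 9 (adjusted p = 0.0533 to 0.17).

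Uptake transporters of the monoamines had no call. Slc6a2, for noradrenaline, had 38.8, 18.1, 15.0 and 22.7 in mutants, against 6.71, 22.4 and 36.7 in controls. Slc6a3, for dopamine, had 63.1, 40.0, 34.4 and 53.4 in mutants and 13.8, 43.9 and 66.0 in controls. Slc6a4, for serotonin, had 75.9, 36.4, 42.3 and 49.9 in mutants and 34.3, 59.6 and 69.4 in controls. The log2 fold changes were 0.01, 0.18 and -0.06, each within its standard error. The transporters of taurine (Slc6a6), creatine (Slc6a8) and proline (Slc6a7) had no call either, with log2 fold changes of -0.29, 0.31 and -0.04 (1 of the 3 rose with arrays centred on reference or fibroblast genes, and 1 rose and 1 fell after quantile normalization). Of 4 genes of creatine metabolism Gatm, which makes the creatine precursor, fell by 1.08 (adjusted p = 1.45e-04) and Gamt, which completes the synthesis, by 0.51 (adjusted p = 0.00997).

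The largest change among the 66 transporters was in the neutral amino acid branch of Slc6a. Slc6a15, a carrier of proline and branched-chain amino acids that is known from neurons, had 565, 794, 574 and 665 in mutants, against 35.8, 59.3 and 98.7 in controls. The lowest mutant was well above the highest control. The log2 fold change was 3.18 (9.04-fold, standard error 0.19, limma adjusted p = 5.13e-10). Slc6a17, a related carrier of synaptic vesicles, had no call (log2 fold change 0.04, standard error 0.13). Slc6a20a, a proline transporter, had 806, 1129, 878 and 1949 in mutants and 1875, 2234 and 2444 in controls. Mutant 4 lay within the control range and the other 3 mutants below it, and the log2 fold change was -0.94 (1.92-fold lower, standard error 0.18, limma adjusted p = 6.42e-04). Its near copy Slc6a20b had no call (log2 fold change -0.12), and how probes divide between the copies is uncertain. The other 5 genes of this branch lay between -0.05 and 0.23 with no call.

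Of the 11 neutral amino acid transporters of the Slc38a family 3 fell, 1 rose and 7 had no call, with a median log2 fold change of -0.20 (-0.07 and -0.04 with arrays centred on reference or fibroblast genes). Slc38a5 (SNAT5), a glutamine carrier known from brain endothelium, had 598, 466, 494 and 617 in mutants, against 1297, 1601 and 3009 in controls, a log2 fold change of -1.69 (3.23-fold lower, standard error 0.21, limma adjusted p = 4.41e-06). No mutant came near the lowest control. Slc38a3 (SNAT3), a glutamine carrier of astrocytes and vessels, had 692, 629, 618 and 1038 in mutants, against 1203, 1548 and 2140 in controls, a log2 fold change of -1.10 (2.15-fold lower, standard error 0.16, limma adjusted p = 3.49e-05). Slc38a4 (SNAT4) had 577, 835, 526 and 835 in mutants and 1006, 1227 and 1434 in controls and fell by 0.82 (standard error 0.15, limma adjusted p = 4.84e-04). In each of these 3 genes all mutants were below all controls.

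Slc38a1 (SNAT1), which supplies neurons with glutamine, was the only one of the 11 to rise. It had 564, 667, 515 and 671 in mutants, against 369, 408 and 502 in controls, a log2 fold change of 0.52 (1.43-fold, standard error 0.12, limma adjusted p = 0.00638). The lowest mutant was just above the highest control. A second probe set of the gene gave a difference of 0.37. The call was lost with Xist as a covariate (adjusted p = 0.0773) and among the mice of low Xist (0.129), at nearly the same fold change. Slc38a2 (SNAT2) had 2964, 4046, 3138 and 4690 in mutants and 3674, 4401 and 4836 in controls, with no call (log2 fold change -0.26, standard error 0.13).

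Slc38a1, Slc38a2 and Slc38a4 lie next to each other on chromosome 15, in this order, with a rise at 1 end, no call in the middle and a fall at the other end. On chromosome 6 the neighbours Slc6a13 and Slc6a12 both fell, by 1.08 and 1.12. The Slc17a1 to Slc17a4 genes, which lie together on chromosome 13 and carry organic anions and phosphate in kidney and liver, had no call, at log2 fold changes from -0.06 to 0.03.

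**Figure D3:**
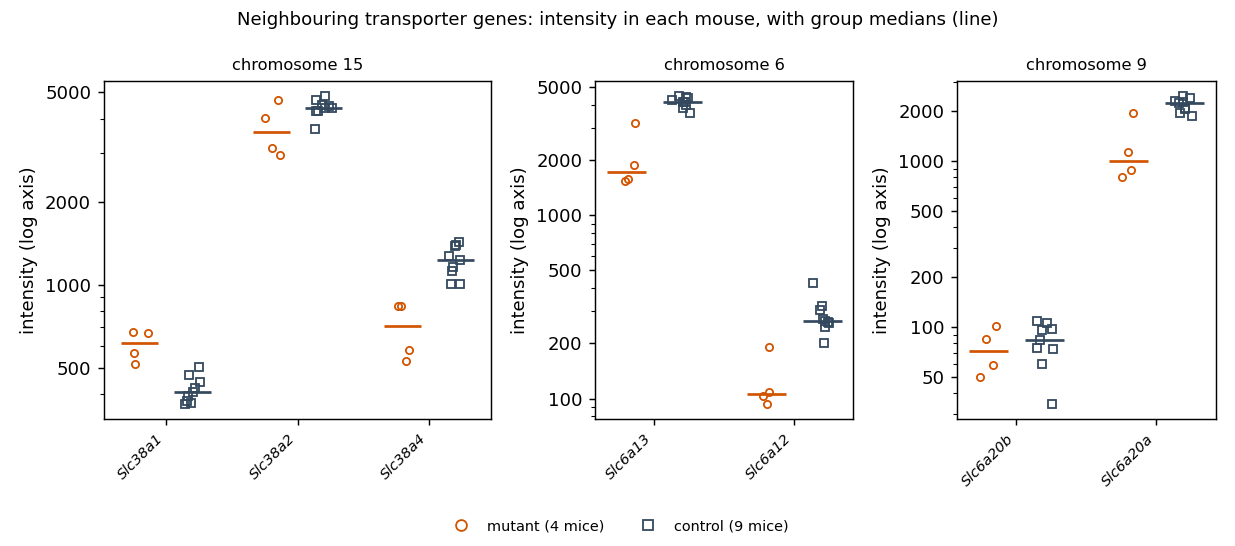
Intensity of each mouse on log axes for transporter genes that are neighbours on a chromosome, with the median of each group as a line. On chromosome 15 mutants lie above controls for Slc38a1 (515 to 671 against 369 to 502) and below them for Slc38a4 (526 to 835 against 1006 to 1434), on chromosome 6 they lie below controls for both genes, and on chromosome 9 the groups overlap for both.

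Cationic amino acid transporters of the Slc7a family were split, with 2 risen, 2 fallen and Slc7a4 without a call. Slc7a1 (CAT1), the common arginine and lysine transporter, had 580, 643, 565 and 702 in mutants, against 1030, 1189 and 2059 in controls, a log2 fold change of -1.06 (2.08-fold lower, standard error 0.18, limma adjusted p = 2.30e-04). The highest mutant was well below the lowest control. Slc7a2 (CAT2), which feeds arginine to macrophages among other cells, had 179, 240, 228 and 284 in mutants and 286, 385 and 415 in controls and fell by 0.67 (limma adjusted p = 0.00118). Of 8 macrophage and microglia markers 7 fell, with sums of 2168 to 4371 in mutants and 5680 to 7751 in controls, and their part in the value was not tested. Slc7a3 (CAT3), known from neurons, had 78.7, 59.0, 41.7 and 51.6 in mutants and 21.8, 36.6 and 51.2 in controls. Slc7a14, a lysosomal member found in neurons, had 222, 293, 215 and 295 in mutants and 117, 157 and 217 in controls. Each of these pairs of groups touched, with 1 mutant inside the control range, and the log2 fold changes were 0.53 (adjusted p = 0.0384) and 0.64 (adjusted p = 0.00727). The call of Slc7a3 was lost without mutant 1, 2 or 4 or control 1, 2 or 7 (adjusted p = 0.0604 to 0.193), and that of Slc7a14 with Xist as a covariate (log2 fold change 0.52, adjusted p = 0.165).

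Among the 10 light chains of the Slc7a family, which work with a heavy chain at the membrane, 3 fell and 1 rose (median log2 fold change -0.18, and -0.04 and -0.01 with arrays centred on reference or fibroblast genes). Slc7a11 (xCT), which exchanges cystine for glutamate and so feeds the synthesis of glutathione, had 817, 825, 872 and 1195 in mutants, against 1313, 2039 and 2367 in controls. All mutants were below all controls, of which control 7 was set apart at the low end. The log2 fold change was -1.11 (2.16-fold lower, standard error 0.15, limma adjusted p = 2.12e-05). Slc7a11 carries the amino acid response core shown above, and genes of the response to amino acid shortage were set beside it. Of 8 measured 1 rose and none fell. The riser was Asns, asparagine synthetase, with 597, 686, 478 and 616 in mutants, against 156, 202 and 260 in controls (log2 fold change 1.51, 2.86-fold, limma adjusted p = 1.37e-07). Atf4, the transcription factor of this response, had a log2 fold change of -0.03 (standard error 0.13).

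The heavy chain Slc3a2 and the light chains Slc7a5, Slc7a8 and Slc7a10 gave smaller changes than the light chain Slc7a11. Slc3a2 had 1818, 1971, 1576 and 2431 in mutants, against 2117, 2642 and 3779 in controls. It fell by 0.49 (limma adjusted p = 0.0391), with mutant 4 inside the control range. This call was lost without mutant 1, 2 or 3 or control 2, 4, 6, 8 or 9 (adjusted p = 0.0508 to 0.159). Slc7a5 (LAT1), the large neutral amino acid transporter of the blood-brain barrier, had 1336, 1047, 981 and 1477 in mutants and 1091, 1335 and 2480 in controls, with no call (log2 fold change -0.25, standard error 0.20). Slc7a8 (LAT2) had 266, 222, 228 and 326 in mutants and 334, 414 and 695 in controls, with all mutants below all controls, and fell by 0.75 (adjusted p = 0.00844). With Xist as a covariate its log2 fold change was -0.60 (adjusted p = 0.174). Slc7a10 (Asc-1), a serine and glycine carrier, had 84.2, 46.1, 41.7 and 55.4 in mutants and 29.4, 51.1 and 70.7 in controls, with no call.

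The related light chains Slc7a6 and Slc7a7, which export cationic amino acids in exchange for neutral ones, went in opposite directions by small amounts. Slc7a6 had 275, 309, 224 and 272 in mutants, against 162, 191 and 231 in controls (log2 fold change 0.45, adjusted p = 0.0202). Slc7a7, known from macrophages and epithelia, had 74.5, 77.8, 76.1 and 90.2 in mutants, against 78.9, 109 and 130 in controls (log2 fold change -0.41, adjusted p = 0.0408). Both overlapped between the groups in 1 mutant. Slc7a6 was not called without mutant 1 or 2 (adjusted p = 0.0591 and 0.0921), nor Slc7a7 without mutant 1, 2 or 3 or any control but 3 and 7 (0.0518 to 0.121). The exchanger Slc1a5 (ASCT2), which carries glutamine, had 235, 295, 214 and 405 in mutants, against 395, 519 and 697 in controls, and fell by 0.86 (limma adjusted p = 0.00109), with mutant 4 inside the control range. Its relative Slc1a4 (ASCT1) had a log2 fold change of -0.53 and no call (adjusted p = 0.0751). Of 11 amino acid transporters of other families, on the plasma membrane and in organelles, none was called in either direction by limma, at log2 fold changes from -0.39 to 0.33. Of these 11, 1 rose with arrays centred on reference or fibroblast genes, 3 fell with arrays centred on their medians, and 1 rose and 3 fell after quantile normalization.

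**Figure D4:**
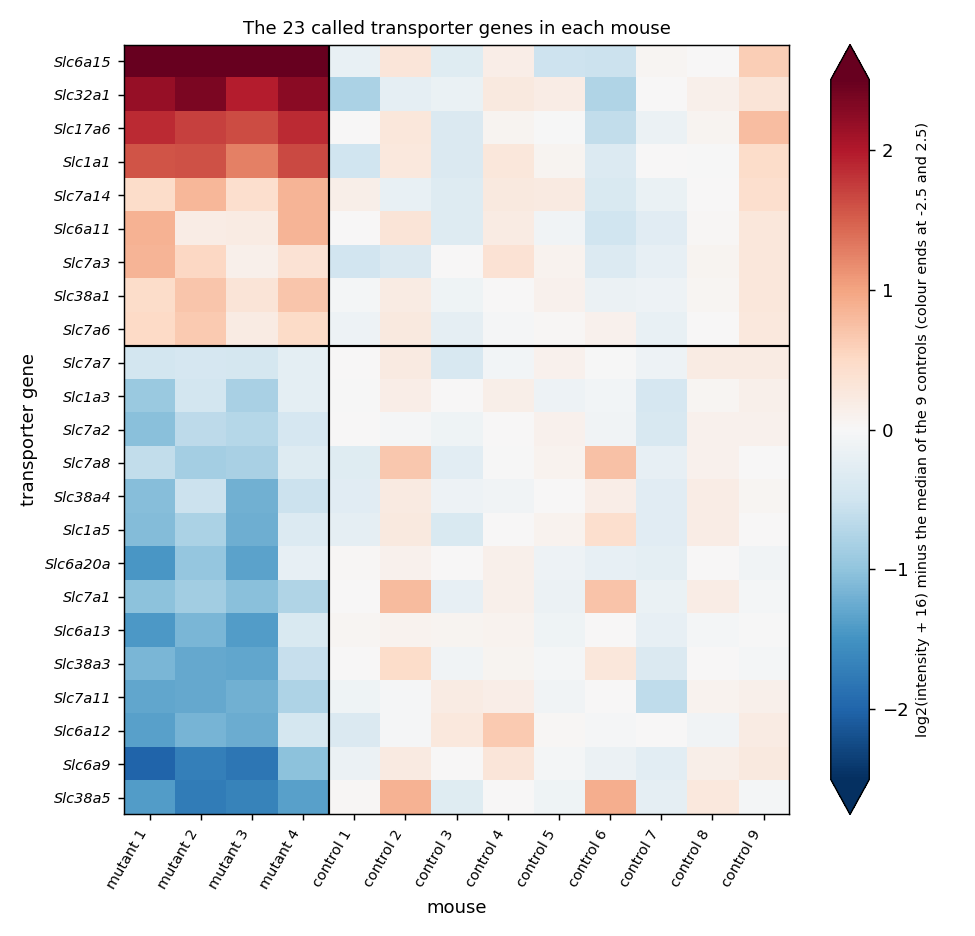
The 23 called transporters in each mouse, as log2(intensity + 16) minus the median of the 9 controls (red above, blue below). Controls 2 and 6 are red for Slc38a5, Slc7a1 and Slc7a8, and among the falls mutant 4 is the palest mutant for 13 of 14 genes.

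The controls were not uniform. Controls 2 and 6 were the highest 2 of the 9 controls for Slc38a5 (2934 and 3009), Slc7a1 (2059 and 1953), Slc7a8 (672 and 695), Slc7a5 (2480 and 2026), Slc38a3, Slc1a5, Slc1a4, Slc6a6 and Slc38a11. These are 9 of the 66 transporters (13.6%), and 6.92% of all tested genes had the same pair on top, a pattern looked for after the values had been seen. The same pair led in all 8 endothelial markers, whose sum was 3607 to 4658 in mutants, 9893 in control 2, 9098 in control 6 and 4711 to 6606 in the remaining controls. It also led in 7 of 8 blood-brain barrier markers. The part of endothelial RNA in the transporter values was not tested. Without controls 2 and 6 the falls of Slc38a5 (log2 fold change -1.48, adjusted p = 9.99e-08), Slc7a1 (-0.88, 5.14e-05), Slc38a3 (-1.01, 5.27e-05), Slc1a5 (-0.77, 0.00247) and Slc7a8 (-0.57, 0.00905) were still called, each by limma over all genes.

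The mutants differed among themselves in a similar way over many transporters. Of the 14 genes that fell, mutant 4 was the one nearest to the control median in 13, with a median log2 difference from it of -0.43, against -1.12, -0.92 and -1.22 in mutants 1, 2 and 3. In the 9 genes that rose mutant 3 was the nearest in 7. With each array centred on its median the order was another: mutant 4 was nearest in 6 of the 14 falls and mutant 3 in 6, and mutant 3 in none of the 9 rises. This description too was made after the values had been seen.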

How the data were processed

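RNA of the dissected meninges of each pup had been hybridised to 1 Mouse Gene 1.0 ST array, and the deposited values are intensities per probe set on a linear scale, which the authors made from raw data with PLIER. The version, background step and scaling between arrays are not given in the sources used here. Array medians were 44.09 to 89.65, so the arrays were read as not brought to 1 distribution. Of 35557 probe sets 21789 carried 1 symbol in the platform's annotation, 1621 several and 12147 none, and 21698 of the 21789 were matched to RefSeq by gene ID, which changed 0 symbols. Only probe sets with 1 symbol were used, the brightest by mean where a gene had several (999 genes, 2 of them transporters).

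Mutants were compared with controls by limma 3.58.1 in R 4.3.3 (lmFit and eBayes, two-sided, no covariate) on log2(intensity + 16), with Benjamini-Hochberg adjustment over 19938 genes. The constant 16 makes the fold change of dim transcripts smaller than their ratio of intensities. Named transporters were all that passed an adjusted p of 0.05 and a list of textbook transporters, and up to 4 genes of each list of related genes. Lists, members and tests were chosen with earlier results of these data known. The pups are separate animals of 1 litter. A p-value therefore sets the difference between groups against the spread between littermates within groups, and the number of arrays limits the precision. In the controls that spread includes several genotypes and, as read from Xist and Eif2s3y, both sexes. Alternatives were the methods' test, other variance models and array weights, other normalizations and constants, filters on dim genes or arrays, the mean of probe sets, Xist as a covariate, a block for the replicate number, and fits that leave out 1 mouse at a time. Leaving out controls 2 and 6, and using only the mice whose Xist intensity was under 16, were chosen after seeing the data. Plots were made in Python 3.11.15 (matplotlib 3.10.9).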

Additional observations from a re-analysis of the deposited data

Results flagged for a closer look

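Over the 37 named transporters both groups were searched for a mouse set apart from the rest of its group by the gap test of Dixon at its 95% level. Of 74 groups 5 had such a mouse, where chance gives about 1 in 20. Control 7 was set apart at the low end for 4 genes: Slc7a11 (1313, the next control at 1895), Slc1a3 (1140, the next at 1413), Slc38a2 (3674, the next at 4274) and Slc7a2 (286, the next at 357). Mutant 4 was set apart at the high end for Slc7a11 (1195, the next mutant at 872). Without control 7 the falls of Slc7a11, Slc1a3 and Slc7a2 were still called.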

How the results depend on the processing

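Under 30 alternative settings, not counting the methods' own threshold, 15 of the 23 called transporters passed the test in every setting in which they were tested, 8 were lost in at least 1, and none reversed. The 9 rises and 14 falls became 4 and 7 at the threshold of the methods' t-test (over 2-fold with an unadjusted p under the usual level), and after Benjamini-Hochberg adjustment that test lost Slc6a11 and Slc7a3. With the Xist level as a covariate, and among the mice of low Xist, 4 rises were called. The 7 falls over 2-fold became 2 centred on reference genes and 2 centred on fibroblast genes, and without the dimmest 50% of genes the 4 rises over 2-fold became 2, since Slc17a6 and Slc1a1 were not tested. Leaving out 1 mouse gave 6 to 9 rises, 13 to 14 falls, 4 to 4 rises and 6 to 9 falls over 2-fold. Without mutant 4 Slc1a5 and Slc6a20a also fell over 2-fold, without mutant 1 or 3 Slc6a13 did not, and without control 2 or 6 Slc7a1 did not. The related lists gave 4 rises and 6 falls, 4 to 4 and 4 to 9 without 1 mouse, 2 and 1 at the methods' threshold, and 7 and 12 after quantile normalization. Their falls were 13 centred on array medians, 11 with array quality weights and 3 with the Xist covariate.

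Replicate numbers 1 to 4 are shared by mutants and controls, but mice of 1 number were no more alike (correlations of -0.34, 0.16, 0.31 and -0.09, and 0 of 4 mutants correlated best with its own number), so they were not read as pairs. With the replicate block, 6 transporters rose and 12 fell, and 3 genes of the related lists fell. No mutant has the numbers of controls 5 to 9. Over all genes, 1284 rose and 545 fell with the block, 1144 and 605 with the Xist covariate, 1190 and 644 among the mice of low Xist, 2033 and 2023 with array weights, 1494 and 778 without mutant 1, and 1904 and 777 without mutant 3, against 1710 and 1258. At the methods' threshold they were 653 and 159. The medians of all genes' log2 fold changes were -0.0936 centred on array medians and -0.1074 with array weights, against 0.0043. Many transporters were dim on these arrays, and a missed call there does not show that a transcript was unchanged.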
